A study of Mus musculus with 6 samples.

Results

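The genes described here are 10 immediate early genes, Fos, Fosb, Jun, Junb, Egr1, Atf3, Ier2, Dusp1, Zfp36 and Klf4. Their rows were found by symbol in the deposited table, and the rule uses no measured value. All 10 were found among the 33971 genes of the table, and all 10 were among the 20397 genes that passed the filter on low counts. RNA-seq had been done on articular cartilage of wildtype mice, with 3 libraries from mice aged 2 months and 3 libraries from mice aged 18 months. The mice carried no other named allele and received no named treatment, and the study's methods describe male animals. The labels number the libraries 1 to 3 within each age and do not say whether a library came from 1 mouse or from pooled mice, so the p-values below measure only the spread between these libraries. Each library has a whole-number count per gene and an FPKM value, which is scaled for gene length and sequencing depth, so that only FPKM can be compared between genes. CPM, used for ratios between libraries, is the count scaled to the library total after that total was adjusted by edgeR's TMM factor.

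Immediate early genes are transcribed soon after a cell meets a stimulus, from factors that are already present, and need no new protein to be switched on. Growth factors, cytokines, calcium and mechanical load act on them through mitogen-activated protein kinases, through SRF with its ternary complex partners and through CREB. Fos and Jun proteins pair through leucine zippers to form AP-1, which in cartilage binds the promoters of matrix metalloproteinase genes. Their mRNAs decay quickly, in part through A+U-rich elements in the 3′ UTR, to which Zfp36 protein binds. The comparison of ages asks how the levels of these transcripts stood in the young and the aged libraries. Whether handling of the tissue before RNA extraction induced any of them was not tested.

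The libraries held 48171507 to 59085179 counts. The ages also differed in the markers of whole cell types. Summed over 16 chondrocyte markers, FPKM ran from 11806 to 14152 at 2 months and from 341 to 1611 at 18 months, and Epyc, a small proteoglycan of cartilage, was at 0 FPKM in each 18-month library. The 14 neutrophil markers summed to 10.1, 4170 and 109 FPKM in 2-month replicates 1, 2 and 3, and to between 42854 and 47756 FPKM at 18 months. The 9 erythroid markers ran from 288 to 7378 FPKM at 2 months, where replicate 2 was the highest, and from 29918 to 39669 FPKM at 18 months. The 12 monocyte and macrophage markers ran from 33.2 to 697 FPKM and from 4165 to 5464 FPKM in the same order. B lymphocyte markers ran from 7.09 to 217 and from 459 to 505 FPKM, T and NK lymphocyte markers from 0.267 to 11.7 and from 108 to 130 FPKM, and endothelial markers from 2.49 to 53.6 and from 44.3 to 49.7 FPKM. Osteoblast and osteocyte markers ran from 1908 to 4981 and from 1173 to 1207 FPKM, fibroblast markers from 343 to 494 and from 14.1 to 29.4 FPKM, and skeletal muscle markers from 6.34 to 33.0 and from 4.10 to 5.35 FPKM. All 16 chondrocyte markers were called lower, whereas 0 of the 14 neutrophil markers were called in edgeR, with 2 at an unadjusted p below 0.05. That count was 13 without 2-month replicate 2, 11 with DESeq2 and 13 with limma on log2(FPKM + 0.1). Xist, the transcript of the inactive X chromosome, had between 88239 and 102417 counts at 2 months and between 11 and 30 counts at 18 months, so that age and sex cannot be told apart in these libraries, whatever the methods state. In bulk tissue, fewer cells of a type and less RNA per cell cannot be told apart either, and the part that cell composition has in any value below was not tested.

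The members are compact genes. In the mouse annotation GENCODE M21, Jun, Junb and Ier2 consist of a single exon, as do 3.38% of the 15251 protein-coding genes tested. The median span of the 10 members was 4698.5 bases, against 23566 bases over those protein-coding genes. Atf3 and Dusp1 were the widest, with spans of 47744 and 56539 bases in the deposited table. The deposited coordinates were the same as in GENCODE M21, on build GRCm38, for 8 of the 10 members and differed for Junb and Ier2. Jun overlaps Junos on the opposite strand, and Dusp1 overlaps Ergic1, Zfp36 overlaps Gm44710 and both partners also lie on the opposite strand. The library kit keeps the strand, but the strand setting of the counting is not given in the sources used here.

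RefSeq promoter sequences on build GRCm38.p6 were at hand for 8 of the 10 members, that is for all but Egr1 and Ier2. The core of the cyclic AMP response element, TGACG, on which CREB and Atf proteins act, was searched on both strands in the 250 bases before the start. It was present for 6 of these 8 members, and in 17.8% of all 32851 promoters in the table. The full palindrome TGACGTCA, which contains that core on each strand, was found before Dusp1 and before 1.55% of all promoters. TATAAA, searched on the sense strand, was found before Fos and before 7.59% of all promoters. The AP-1 site TGANTCA was in none of the 8 and in 6.75% of all, which says only that these letters are not in this window. Stretches before Fos, Fosb, Junb and Dusp1 are shown as examples of the TGACG core, which Atf3 and Klf4 also hold. None of these 6 genes was called between the ages in edgeR. Whether the core bears on any level given further on was not tested. The Dusp1 stretch lies before its RefSeq start but inside its deposited span of 56539 bases, which runs from 26505590 to 26562128. Capitals mark TGACG on either strand and TATAAA, and each stretch is written 5′ to 3′ on the strand of its gene.
Fos, chr12:85473750-85473889, plus strand: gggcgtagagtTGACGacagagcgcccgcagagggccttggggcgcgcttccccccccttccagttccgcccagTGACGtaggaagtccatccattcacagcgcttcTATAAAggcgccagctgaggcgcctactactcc
Fosb, chr7:19310052-19310185, minus strand: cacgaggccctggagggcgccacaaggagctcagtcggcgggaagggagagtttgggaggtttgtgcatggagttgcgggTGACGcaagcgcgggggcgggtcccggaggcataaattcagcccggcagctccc
Junb, chr8:84978749-84978888, minus strand: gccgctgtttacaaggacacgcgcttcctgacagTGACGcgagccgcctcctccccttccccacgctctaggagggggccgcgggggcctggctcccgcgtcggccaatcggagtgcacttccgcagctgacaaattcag
Dusp1, chr17:26508520-26508672, minus strand: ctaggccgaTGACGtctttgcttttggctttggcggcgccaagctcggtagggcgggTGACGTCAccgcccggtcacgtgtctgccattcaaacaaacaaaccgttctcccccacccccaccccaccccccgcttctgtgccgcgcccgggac

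A+U-rich elements were searched on the sense strand in the 3′ UTR of the longest coding GENCODE M21 transcript of each gene. The core AUUUA was present in 9 of the 10 members, against 68.1% of 15104 genes with a 3′ UTR, and Ier2 had none. Its median density was 2.89 per 1000 bases over the members and 1.24 per 1000 bases over those genes. The longer element UUAUUUAUU, the form that Zfp36 binds, was in Fos, Dusp1 and Zfp36 itself, and in 7.80% of all genes. Dusp1 holds 2 of them. A site of each gene is shown, 5′ to 3′ as RNA, because Zfp36 was among the members that differed between the ages, and capitals mark the element.
Fos: uguuuucaauUUAUUUAUUaagauggauu
Dusp1: gagcugguccUUAUUUAUUuaacaccccc
Zfp36: uaugacgacuUUAUUUAUUguauuaagau

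At 18 months, 2 of the 10 members were called higher and 0 were called lower. Ier2 and Zfp36 rose, and the other 8 did not pass the test. A call needed an adjusted p below 0.05 and a log2 fold change beyond 1 in edgeR's quasi-likelihood test, adjusted over all 20397 genes. Of all genes tested, 14.9% were called higher and 21.3% were called lower, so that the share of members called higher was near the background. At an unadjusted p below 0.05, 2 members were higher and 2, Egr1 and Dusp1, were lower. DESeq2 called 2 members higher and 1 lower, and limma on log2(FPKM + 0.1) called 2 higher and 0 lower. On the TPM scale, on which the median of all genes moved from -0.02 to -0.37, Ier2 stood at 0.84 and Zfp36 at 0.76 and neither was called. Over the 10 members the median difference was -0.02 in edgeR, as it was over all genes tested. In CPM, the 3 libraries of an age lay wholly above or below those of the other age for 2 of the 10 members, both higher at 18 months, whereas this held for 33.9% of all genes as higher and 34.6% as lower. Summed over the 10 members, FPKM was 133 ± 21.6 at 2 months and 140 ± 18.6 at 18 months (SD, n = 3 each).

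**Figure D1:**
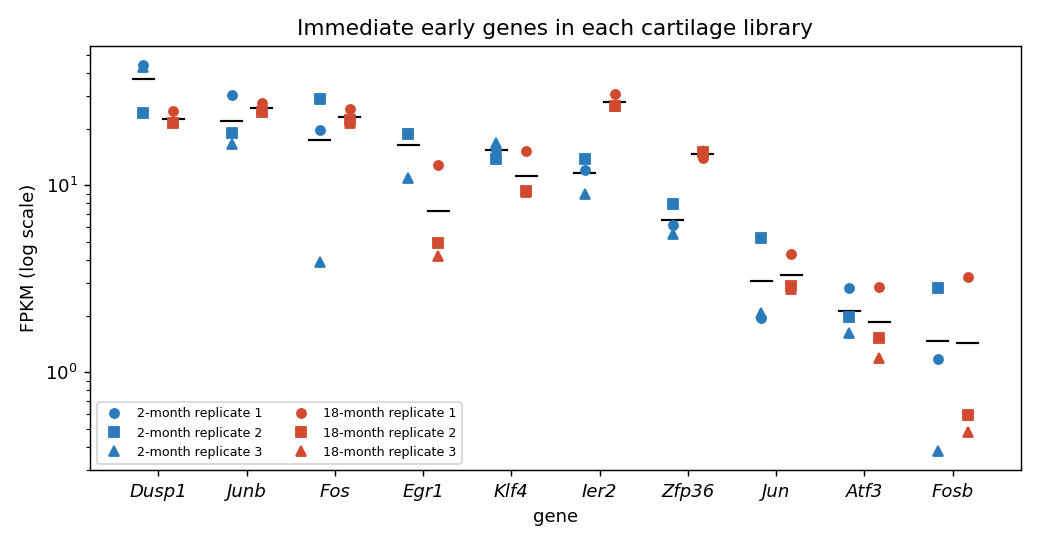
FPKM of the 10 immediate early genes on a log axis, with 1 point for each library, blue for 2 months and red for 18 months, shapes for the replicate number and a black bar for the mean of each age. Ier2 and Zfp36 are the genes whose ages do not overlap, and Fos spans 3.90 to 28.8 FPKM at 2 months.

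Ier2, a small nuclear protein that is induced by serum and growth factors, was the member with the largest rise. The gene lies at chr8:84661331-84662854 on the minus strand in the deposited table. It was at 12.1, 13.8 and 8.99 FPKM in 2-month replicates 1, 2 and 3, and at 30.6, 26.7 and 26.5 FPKM in 18-month replicates 1, 2 and 3. The lowest aged library stood well above the highest young library. The fold change was 2.28 (log2 1.19, SE 0.16, adjusted p = 0.00275 in edgeR). When each library was left out in turn, the log2 fold change ran from 1.05 to 1.31 and the call held each time.

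Zfp36, also named tristetraprolin, binds A+U-rich elements and shortens the life of cytokine mRNAs, and lies at chr7:28376784-28380253 on the minus strand. It was at 6.10, 7.97 and 5.51 FPKM in the 3 young libraries and at 14.0, 15.1 and 15.2 FPKM in the 3 aged libraries. The ages again did not overlap, and the aged libraries lay close together. The fold change was 2.16 (log2 1.11, SE 0.14, adjusted p = 0.00229 in edgeR), and it ran from 1.02 to 1.25 on the log2 scale when each library was left out in turn. Both rises are close to the limit of 1, and neither passed edgeR's test against a fold change of 2 (adjusted p = 0.145 for Ier2 and 0.231 for Zfp36). Ier2 and Zfp36 were the pair of members with the most alike profiles, at a root mean square distance of 0.14 in centred log2 CPM over the 6 libraries. Both were higher in each aged library than in any young one, so this likeness is not a separate result. Macrophage and neutrophil markers were higher in the same libraries, and their part in these rises was not tested.

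**Figure D2:**
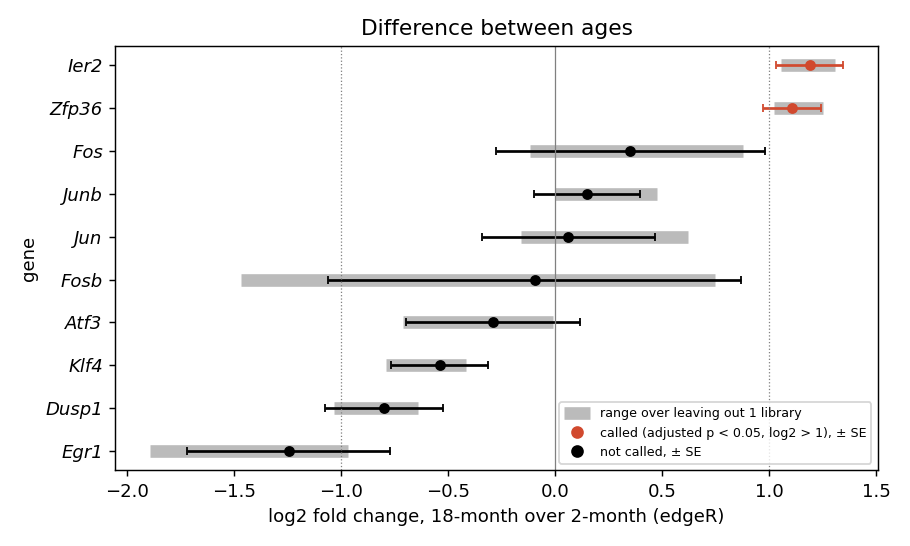
Log2 fold change of 18 months over 2 months for each immediate early gene, with its SE as a line (edgeR, n = 3 libraries each) and, in grey, the range when each library is left out in turn. The red points, Ier2 at 1.19 and Zfp36 at 1.11, are the called genes, and the grey bars of Fosb, Fos, Jun and Junb cross 0.

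Egr1, a zinc finger factor that serum and mechanical load induce, had the largest difference in the lower direction and was not called. It was at 19.2, 18.9 and 10.9 FPKM in the young libraries and at 12.8, 4.89 and 4.19 FPKM in the aged libraries. The ages overlapped through 2-month replicate 3 and 18-month replicate 1. The log2 difference was -1.25 (SE 0.47, adjusted p = 0.0711 in edgeR), and an estimate without 18-month replicate 1 was -1.89 (SE 0.29, adjusted p = 0.00967), which passed both limits. Of the other Egr genes, Egr3 was called lower, with a log2 fold change of -1.31 (SE 0.37, adjusted p = 0.0304), and Egr2 was at -0.39 (SE 0.48, adjusted p = 0.527). The call of Egr3 was lost without 2-month replicate 1 or 3 and without 18-month replicate 2 or 3, with adjusted p from 0.0626 to 0.0994.

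Dusp1, a phosphatase that removes phosphate from mitogen-activated protein kinases and so ends their signal, was at 43.9, 24.3 and 43.0 FPKM in the young libraries. In the aged libraries it was at 25.0, 21.5 and 21.7 FPKM. Only 2-month replicate 2 reached the aged range. The log2 difference was -0.80 (SE 0.28, adjusted p = 0.0542 in edgeR), and without 2-month replicate 2 it was -1.03 (SE 0.09, adjusted p = 0.000393), again past both limits. That library is the young one with the highest neutrophil and erythroid markers. The part of cell composition in this difference was not tested.

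Klf4, a zinc finger factor of the Krüppel family, was at 15.5, 13.7 and 16.8 FPKM in the young libraries and at 15.2, 9.34 and 9.20 FPKM in the aged libraries. The aged replicate 1 lay within the young range, and the other aged libraries lay below it. The log2 difference was -0.54 (SE 0.23, adjusted p = 0.0936 in edgeR). Atf3, a repressor of the CREB family that stress induces, was at 2.81, 1.98 and 1.62 FPKM and at 2.86, 1.53 and 1.19 FPKM in the same order of libraries. Its ages overlapped, with a log2 difference of -0.29 (SE 0.41, adjusted p = 0.575).

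Among the AP-1 members, no gene was called. Fos was at 19.8, 28.8 and 3.90 FPKM at 2 months and at 25.7, 22.4 and 21.4 FPKM at 18 months. The young libraries spanned a wide range in which all aged libraries fell, and the log2 difference was 0.35 (SE 0.63, adjusted p = 0.664 in edgeR). Without 2-month replicate 3 it was -0.12 (SE 0.17, adjusted p = 0.629), so that its sign rested on 1 library. Fosb, a close relative of Fos, was at 1.17, 2.83 and 0.379 FPKM and at 3.22, 0.588 and 0.477 FPKM. Each age held a library well above its other libraries, and the log2 difference was -0.10 (SE 0.97, adjusted p = 0.942).

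Jun, the AP-1 subunit that c-Jun N-terminal kinases phosphorylate, was at 1.95, 5.21 and 2.07 FPKM in the young and at 4.29, 2.91 and 2.80 FPKM in the aged libraries. Its ages overlapped, with a log2 difference of 0.06 (SE 0.40, adjusted p = 0.909 in edgeR). Junb, a Jun protein that can hold back Jun at its targets, was at 30.2, 19.1 and 16.7 FPKM and at 27.5, 24.7 and 25.5 FPKM. Its aged values lay within the young range, and the log2 difference was 0.15 (SE 0.25, adjusted p = 0.643). Of their relatives outside the list, Jund was lower in every aged library than in any young one, at 41.5 ± 5.08 against 22.6 ± 3.66 FPKM (SD, n = 3), with a log2 fold change of -0.96 (SE 0.18, adjusted p = 0.00752) that stayed inside the fold limit. It passed that limit without 2-month replicate 2, at -1.07, without 18-month replicate 1, at -1.05, with the 100 most abundant genes left out of the scaling, at -1.01, with genes under 1 FPKM left out, at -1.07, and on the TPM scale, at -1.32. Fosl2 was at -0.10 (SE 0.18, adjusted p = 0.669) and Fosl1 was under 0.1 FPKM in each library, too low to be tested.

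**Figure D3:**
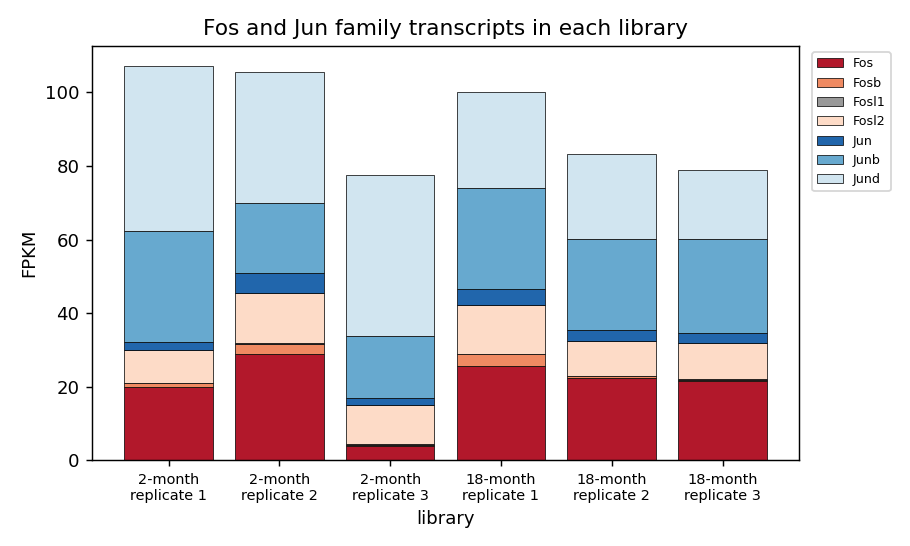
FPKM of the Fos and Jun family genes stacked for each library, so that the height of a bar is their sum. The sum runs from 77.6 to 107 FPKM, with the Jund segment larger in the 2-month libraries and the Fos segment smallest in 2-month replicate 3.

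The 7 Fos and Jun family genes summed to 96.8 ± 16.6 FPKM at 2 months and 87.4 ± 11.2 FPKM at 18 months. Jund made up 44.1% ± 11.5 of this sum in the young and 25.8% ± 1.97 in the aged libraries. Junb made up 22.6% ± 5.13 and 29.8% ± 2.41. Fos took 18.5%, 27.3% and 5.02% in the young libraries and between 25.6% and 27.1% in the aged libraries. For 6 ratios between family members within a library, an exact two-sided permutation test of 3 against 3 libraries cannot go below p = 0.1, so no ratio could pass 0.05. The ratio of Jund to Jun had the lowest p, with values of 23.1, 6.85 and 21.2 in young and 6.08, 7.93 and 6.71 in aged libraries. Its log2 ratio fell by 1.13 between the means, with p = 0.2 in that exact test and 0.72 after Benjamini-Hochberg adjustment over the 6 ratios.

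The order of the levels differed between the ages. In the young libraries Dusp1 led with a mean of 37.0 ± 11.1 FPKM, followed by Junb, Fos, Egr1, Klf4, Ier2, Zfp36, Jun, Atf3 and Fosb. In the aged libraries Ier2 led with 27.9 ± 2.34 FPKM, followed by Junb, Fos, Dusp1, Zfp36, Klf4, Egr1, Jun, Atf3 and Fosb. Neighbours in the young order overlapped in their library values except Ier2 with Zfp36 and Zfp36 with Jun. In the aged order the exception was Dusp1 with Zfp36. Even the member with the least signal, Fosb, stood above 41.2% of the tested genes in young and 40.3% in aged libraries by mean FPKM. Dusp1 stood above 95.8% and 89.9%.

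Some of these genes differed widely between libraries of the same age. Among 13900 tested genes with a mean of at least 1 FPKM, the ratio of the highest to the lowest CPM within an age exceeded 1.5 for 41.9% at 2 months and for 21.01% at 18 months. It did so for 7 of the 10 members at 2 months and for 4 at 18 months. At 2 months the ratio was 6.68 for Fos and 6.73 for Fosb, against a median of 1.40 over those genes. Of those genes, 89.5% had a lower ratio than Fos and 89.5% a lower ratio than Fosb. At 18 months the ratio was 6.45 for Fosb, 2.94 for Egr1 and 2.30 for Atf3, against a median of 1.22. For Klf4 it was 1.59 and for Jun 1.47. The other 5 members, Fos, Junb, Ier2, Dusp1 and Zfp36, had ratios of 1.07 to 1.15 at 18 months, below that median.

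Among the aged libraries, replicate 1 stood apart. It was the highest of the 3 for 9 of the 10 members, and for 48.1% of the 13900 genes. Relative to the mean of replicates 2 and 3 its CPM was 5.80 times as high for Fosb, 2.72 for Egr1, 2.03 for Atf3, 1.58 for Klf4 and 1.44 for Jun, and Zfp36 was the exception at 0.89. The same library was above 1.5 times the other aged libraries for 14 of 16 chondrocyte markers, for 8 of 11 heat shock genes and for 10 of 59 other early response genes, beside 10.04% of the 13900 genes. Replicates 2 and 3 differed from each other by at most 1.28 times in any member, and a chi-square of their counts exceeded 3.84, the 5% limit of that test, for 3 of the 10 members. Over all tested genes the median of that chi-square was 2.94, against 10.1 to 10.2 for the pairs with replicate 1. These chi-squares cover counting error only, so whether replicates 2 and 3 come from separate animals was not tested, and they were counted as separate samples because the labels number them so. Among the young libraries, replicate 3 was the lowest for 7 of the 10 members, and for 20.8% of the 13900 genes, and replicate 2 was the highest for 5, beside 44.6% of those genes.

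**Figure D4:**
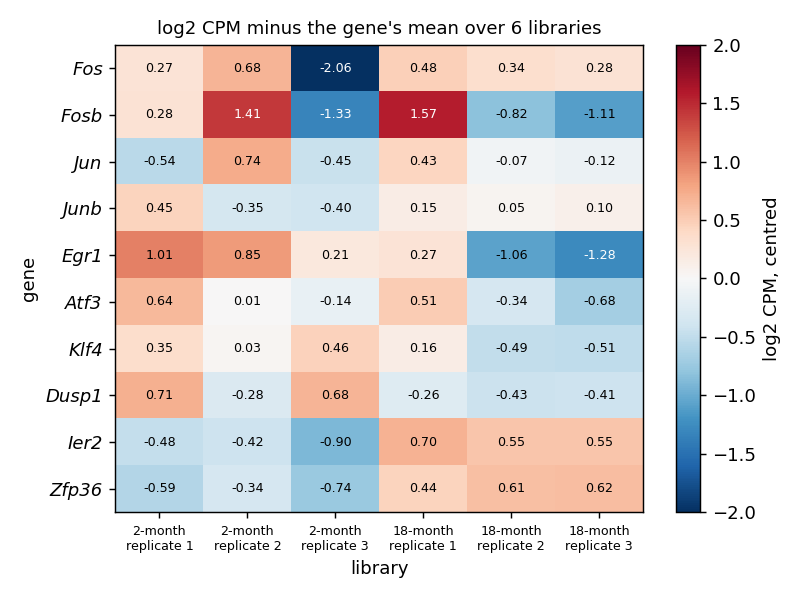
Log2 CPM of each immediate early gene minus its mean over the 6 libraries, by library, with the value printed in each cell and a colour scale from -2 (blue) to 2 (red). Ier2 and Zfp36 are below 0 in each 2-month library and above 0 in each 18-month library, whereas Fosb is highest in 18-month replicate 1 and 2-month replicate 2.

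By the same distance in centred log2 CPM, genes were compared with the mean profile of the members, among tested genes with a mean of at least 1 FPKM. The most alike were Nradd, Ace, Zbtb12, Prkra and Gm10254, at distances of 0.09 to 0.15 over 6 libraries. The search for the gene nearest to each single member covered all tested genes. The gene nearest to Zfp36 was Sdhb, at 0.03, and the gene nearest to Klf4 was Acy1, at 0.05. Ppp1ccb was nearest to Ier2, at 0.05, Ninj1 to Dusp1, at 0.07, and Septin11 to Jun, at 0.09. Lamtor5 was nearest to Junb, at 0.10, Zfp65 to Fos, at 0.13, Pm20d1 to Egr1, at 0.15, and Plod3 to Atf3, at 0.19. Fosb had no gene as near, and Gm37403, with less than 0.3 FPKM in each library, was nearest at 0.49.

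Early response genes beyond these 10 moved in both directions. Of 59 tested, 10 were called higher and 16 lower, beside the 14.9% and 21.3% over all genes. Without 2-month replicate 2 the counts were 17 and 19, and without 2-month replicate 3 they were 8 and 10. Among 17 transcription factors, 3 rose, namely Myc, Irf1 and Nfil3, and 4 fell, namely Egr3, Nr4a2, Hes1 and Bhlhe40. Without 2-month replicate 3, 1 was called in each direction, and the 4 became 1 without 2-month replicate 1 or 18-month replicate 3 and 2 without 18-month replicate 2. Nfil3, a leucine zipper repressor of clock and immune genes, went from 3.28 ± 0.48 to 14.6 ± 1.65 FPKM (log2 2.08, SE 0.15, adjusted p = 0.000919 in edgeR), and Klf6, the most abundant of them, was at 27.1 ± 3.60 and 32.1 ± 1.99 FPKM without a call. Klf2, the next most abundant, was at 16.6 ± 1.31 and 15.1 ± 3.96 FPKM, also without a call. Among 29 effectors, 5 rose, namely Btg2, Mcl1, Pim1, Plk3 and Socs3, and 11 fell, and 8 rose without 2-month replicate 2. Ccn2, the connective tissue growth factor that chondrocytes secrete, fell from 1118 ± 528 to 69.2 ± 42.1 FPKM (log2 -4.13, SE 0.66, adjusted p = 0.00476). Mcl1, a protein that keeps cells from apoptosis, rose from 33.6 ± 12.4 to 117 ± 2.33 FPKM (log2 1.74, SE 0.23, adjusted p = 0.00290).

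The relatives of Dusp1 and Zfp36 went both ways. Of 9 other dual-specificity phosphatases, 1 rose and 1 fell, beside 14.9% and 21.3% of all genes. Dusp10, which acts on p38 and c-Jun N-terminal kinases, rose from 0.517 ± 0.329 to 2.76 ± 0.91 FPKM (log2 2.36, SE 0.53, adjusted p = 0.0138 in edgeR), whereas Dusp14 fell. Without 2-month replicate 3 neither was called, without 2-month replicate 1 or 18-month replicate 2 or 3 none of the 9 was called lower, and without 2-month replicate 2 the counts were 4 and 2. Dusp6, which ends ERK signals, was at 6.98 ± 3.91 and 11.4 ± 1.35 FPKM without a call, and Dusp7, at a log2 difference of -0.95, stayed inside the fold limit, and both were called without 2-month replicate 2 (1.15 and -1.05). Dusp7 was also called with genes under 1 FPKM left out (-1.06) and on the TPM scale (-1.29). Zfp36l2 rose like Zfp36, from 19.6 ± 5.14 to 59.7 ± 4.96 FPKM (log2 1.54, SE 0.19, adjusted p = 0.00218), and Zfp36l1 was lower without passing the fold limit, at 27.2 ± 5.23 and 19.7 ± 2.66 FPKM (log2 -0.54, SE 0.15, adjusted p = 0.0257).

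**Figure D5:**
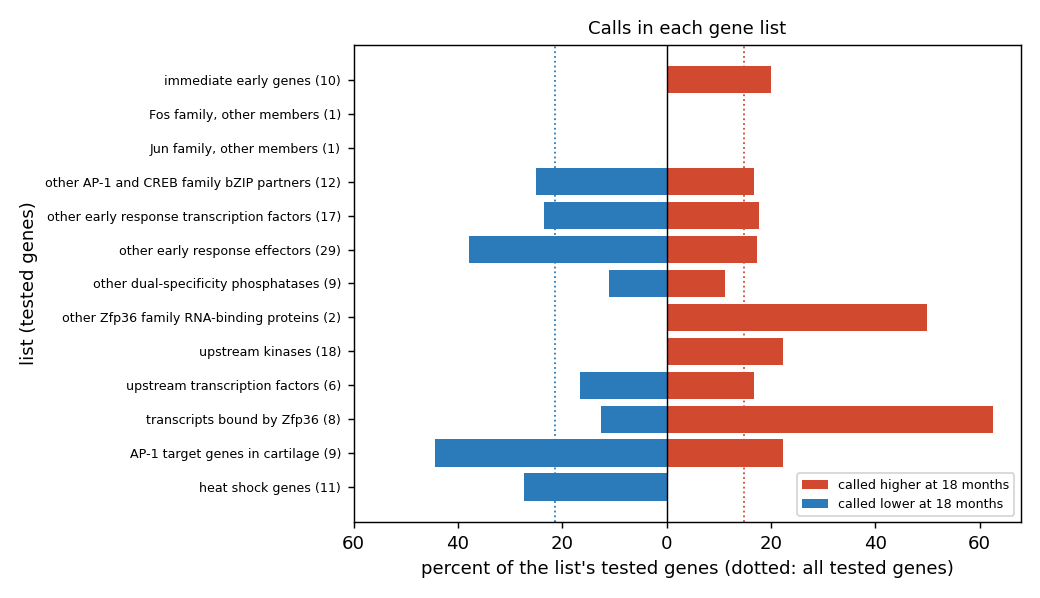
Percent of the tested genes of each list that were called higher (red, right) or lower (blue, left) at 18 months, with the number tested in brackets and dotted lines at the 14.9% and 21.3% of all genes. The immediate early genes stand at 2 of 10 called higher and 0 called lower.

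Upstream of these genes, 4 of 18 kinases were called higher in edgeR, beside 14.9% of all genes. They were Map2k3, Mapk14, Mapkapk2, which phosphorylates Zfp36, and Rps6ka1. Mapkapk2 went from 35.7 ± 2.92 to 78.4 ± 3.61 FPKM (log2 1.06, SE 0.11, adjusted p = 0.00165), and at 0.95 over genes with at least 1 FPKM and 0.70 on the TPM scale it stayed inside the fold limit. Rps6ka1, a kinase below ERK that blood cells express at a high level, went from 4.64 ± 4.40 to 55.6 ± 4.24 FPKM (log2 3.55, SE 0.68, adjusted p = 0.00815). Mapk3, which encodes an ERK, was at 50.6 ± 7.15 and 54.8 ± 5.46 FPKM. Of 6 upstream transcription factors, 1 rose and 1 fell, beside 14.9% and 21.3% of all genes. Mrtfa rose and Mrtfb fell, both being partners of SRF. Srf itself was at 7.02 and 14.0 FPKM in the mean (log2 0.92, SE 0.17, adjusted p = 0.00716), inside the fold limit, which it passed without 2-month replicate 2, at 1.07, and without 18-month replicate 3, at 1.02. Of the 6, 2 rose without 18-month replicate 3, 2 fell without 18-month replicate 1 and 2 did so in each direction without 2-month replicate 2. Among 12 other leucine zipper partners of the AP-1 and CREB families, 2 rose and 3 fell, beside 14.9% and 21.3% of all genes. Batf and Atf1 rose, and Batf3, Atf7 and Maff fell. Batf, which pairs with Jun proteins in lymphocytes, had a log2 fold change of 2.68 (SE 0.30, adjusted p = 0.00186). The most abundant of the 12, Jdp2 and Mafg, were not called, at log2 differences of 0.99 (SE 0.41, adjusted p = 0.0899) and 0.80 (SE 0.12, adjusted p = 0.00388). Jdp2 was called with DESeq2 (1.07), with limma on log2(FPKM + 1) (1.15) and without 2-month replicate 2 (1.59). With a library left out, 2 to 4 of the 12 rose, with 4 without 2-month replicate 2, and 1 to 3 fell, with 1 without 18-month replicate 2 or 3.

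Downstream, of 8 tested transcripts known to be bound by Zfp36, 5 were called higher and 1 lower, beside 14.9% and 21.3% of all genes. The 5 were Il1b, Il6, Cxcl2, Ccl3 and Il10, of which Il6 and Il10 were under 1 FPKM in each library. The 5 became 6 without 2-month replicate 2 and 3 without any other library. Neutrophil and macrophage markers were higher in the aged libraries, and their part in these counts was not tested. Il1b, a cytokine of myeloid cells, was at 0.148, 2.03 and 0.0822 FPKM in the young and at 31.2, 24.6 and 23.7 FPKM in the aged libraries (log2 5.10, SE 1.25, adjusted p = 0.0183 in edgeR). Ptgs2, the inducible cyclooxygenase, fell from 4.83 to 0.351 FPKM in the mean (log2 -3.87, SE 0.52, adjusted p = 0.00295). Of 9 tested AP-1 target genes in cartilage, 2 rose and 4 fell, beside 14.9% and 21.3% of all genes. Plaur and Hmox1 rose, and Mmp13, Timp1, Spp1 and Ptgs2 fell. All 16 chondrocyte markers were called lower too, and the part of cell composition in these counts was not tested. Mmp13, the collagenase of cartilage, fell from 562 ± 207 to 206 ± 55.6 FPKM (2.84-fold lower, adjusted p = 0.0135), and Spp1, which encodes osteopontin, fell from 2068 ± 320 to 1067 ± 156 FPKM (log2 -1.03, SE 0.23, adjusted p = 0.0135), a call that was lost with median-of-ratios size factors (-0.98), with total counts (-0.96), on log2(FPKM + 0.1) (-0.95) and without 2-month replicate 1 or 2 or 18-month replicate 2 or 3. Ptgs2 is in both lists. The 4 became 6 without 18-month replicate 1. Of 11 heat shock genes, 0 were called higher and 3 were called lower, beside 14.9% and 21.3% of all genes. The median log2 fold change of that list was 0.41, against -0.02 over all genes tested. Hspb1 fell from 11.8 ± 6.09 to 1.92 ± 0.98 FPKM (log2 -2.73, SE 0.61, adjusted p = 0.0134 in edgeR). Its adjusted p in edgeR was 0.0518 and 0.0552 without 18-month replicate 2 or 3. The other fallers were Hspa1a and Bag3. Hspa8 was at 338, 192 and 189 FPKM in aged replicates 1, 2 and 3, where replicate 1 was the highest for 48.1% of 13900 genes. Hsp90aa1, the next most abundant of that list, was inside the fold limit, at a log2 difference of 0.84 (SE 0.22, adjusted p = 0.0223).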

How the data were processed

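The 6 libraries of mouse articular cartilage were used, 3 for each age. The deposited table pairs raw counts, which the authors left without normalization, with the authors' FPKM values, which adjust for length and depth. The submitters' processing notes name cutadapt 1.9, HISAT2 2.0.4, UMI-tools, StringTie 1.3.4d, DESeq2 and edgeR. The build and annotation are not given in the sources used here. Libraries held 48171507 to 59085179 counts, which limits precision only in low genes.

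The count test was that of edgeR 4.0.16 under R 4.3.3 (TMM, filterByExpr, quasi-likelihood) without a replicate block, as 18 months minus 2 months, with Benjamini-Hochberg adjustment over 20397 genes. The SE came from the log2 fold change and its F statistic. Same-numbered libraries were not taken as pairs. The alternatives were other scalings and filters, DESeq2 1.42.0, limma 3.58.1 on log2 FPKM or TPM with pseudocounts of 0.1, 1 or 0.01, a test against a fold change of 2, a replicate block and leaving out each library. Ratios used exact permutation tests. The scripts were tested on simulated data.

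The members and the 22 gene lists were chosen with earlier results of these data known. Named were the 10 members, from each list the 2 genes with the highest mean FPKM and the called gene with the largest change among those of at least 1 FPKM, the other Fos, Jun, Zfp36 and Egr family members, and the nearest profiles. Called genes named to complete a count, Ergic1, Gm8225, Gm50275, Gm50274, Junos, Gm44710, Xist, Dusp14 and the marker Epyc were chosen after their values were seen. Genes of the marker lists are given as sums.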

Additional observations from a re-analysis of the deposited data

How the results depend on the processing

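The count of 2 immediate early genes called higher stayed at 2 in all alternatives except rescaling to TPM and the test against a fold change of 2, which each called 0. The count called lower was 1 instead of 0 with DESeq2 and with the replicate block, in each case Egr1, and 2 on the TPM scale, Egr1 and Dusp1. On that scale the median of all tested genes moved to -0.37, so the members' median of -0.38 there was close to it. When each library was left out in turn, 0 to 1 members were called lower and 2 higher, and the members' median ran from -0.42 to 0.34. The -0.42 came without 18-month replicate 1 and the 0.34 without 2-month replicate 2. For the other early response genes, the test against a fold change of 2 left 6 higher and 9 lower. Leaving out each library gave 8 to 17 higher and 10 to 19 lower, with the 17 without 2-month replicate 2 and the 10 without 2-month replicate 3.

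Several members near 0 changed sign, and no gene that changed sign was called. The log2 fold change of Jun was -0.0016 with the scaling without the 100 most abundant genes, -0.043 when genes under 1 FPKM were left out and -0.19 on the TPM scale, and from -0.16 to 0.62 with a library left out. Junb was at -0.16 on the TPM scale and from -0.0027 to 0.48 with a library left out. Fosb ran from -1.47 to 0.75, Fos from -0.12 to 0.88 and Fosl2 from -0.24 to 0.050 with a library left out. Mapk3 was at -0.019 without the 100 most abundant genes in the scaling, -0.080 without genes under 1 FPKM and -0.32 on the TPM scale, where Klf6 was at -0.18, and with a library left out Mapk3 ran from -0.094 to 0.13 and Egr2 from -0.85 to 0.075. With 18-month replicates 2 and 3 summed, an alternative added after seeing the data, Fosb was at 0.30. Log2 ratios changed sign for Fos to Jun (-0.087 to 1.13), Junb to Jun (-0.50 to 0.54) and Fosl2 to Fos (-1.28 to 0.00067) with a library left out. The cause was not tested.

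The replicate block gave 2 members higher and 1 lower, with Egr1 at -1.38 (adjusted p = 0.0302). Same-numbered libraries correlated at 0.03, 0.04 and -0.02 in their deviations from the mean of their age, so the numbers were not taken to pair them. Libraries of 3 against 3 give no exact permutation p below 0.1.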
